A study of Rattus norvegicus with 232 samples.

Results

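The genes described here are the Zfp genes of higher expression in rat brain, that is, the rows of a gene-level expression table whose symbol is Zfp followed by digits. They were chosen by their measured level: a gene was kept when its mean over all libraries reached the median row mean of the table, 8.32 on the log2 scale. Of 261 Zfp rows, 180 met this rule and 81 lay below it, among 20932 rows in all. The 3 members just inside the threshold were Zfp449 at 8.38, Zfp94 at 8.42 and Zfp7 at 8.42, and the 3 Zfp genes just outside it were Zfp39 at 8.29, Zfp3 at 8.26 and Zfp458 at 8.25. By the table's values, which are not per gene length, the top 3 members were Zfp106 at 13.87, an RNA-binding protein required for the upkeep of motor neurons and muscle, Zfp483 at 12.52 and Zfp91 at 12.39. Levels are not compared between genes below.

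The table holds 214 libraries of rRNA-depleted RNA from the brains of untreated rats (135 libraries are labelled male and 79 carry no sex label), which were reduced to 197 animals of 74 inbred strains by averaging libraries of the same animal. The strains belong to the Hybrid Rat Diversity Panel, which the study used to compare ways of mapping genetic effects on expression. The strains comprised 30 of the HXB/BXH recombinant inbred family (88 animals), 19 of the FXLE/LEXF family (43 animals) and 25 classic inbred strains (66 animals), with 3 animals in 54 strains, 2 in 15 and 1 in 5. The HXB/BXH strains were bred from BN-Lx/Cub and SHR/OlaIpcv, so each of them carries a fixed mosaic of those progenitor genomes. The labels give no age and name whole brain. For the strains they cover, the paper's methods describe young adult males and the use of a sagittal portion of each brain. Replicates are separate animals of a strain and are near-identical in genotype. Fewer cells of a type and less RNA per cell cannot be told apart in bulk tissue.

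Zfp is the symbol given in rodents to zinc finger protein genes, most of which carry arrays of C2H2 fingers that bind DNA. Many of them also carry a KRAB domain, which recruits the co-repressor Trim28 and, through it, the histone methyltransferase Setdb1 and heterochromatin proteins, and so silences transposable elements and other targets. The genes have multiplied by tandem duplication and lie in clusters. Copies within a cluster can share sequence, and estimated counts of such genes depend on how the quantifier divided the shared reads.

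The members with the most strain-dependent expression were Zfp94, Zfp61 and Zfp180, which lie near each other on chromosome 1. Their promoter windows, 250 bases before and 50 after the RefSeq start, are shown because these 3 genes also moved together across the recombinant inbred strains. All are from the GRCr8 assembly, written 5′ to 3′ on the gene's own strand, at chr1:88780092-88780391 on the plus strand for Zfp180, chr1:88985610-88985909 on the minus strand for Zfp61 and chr1:89007466-89007765 on the minus strand for Zfp94.
Zfp180: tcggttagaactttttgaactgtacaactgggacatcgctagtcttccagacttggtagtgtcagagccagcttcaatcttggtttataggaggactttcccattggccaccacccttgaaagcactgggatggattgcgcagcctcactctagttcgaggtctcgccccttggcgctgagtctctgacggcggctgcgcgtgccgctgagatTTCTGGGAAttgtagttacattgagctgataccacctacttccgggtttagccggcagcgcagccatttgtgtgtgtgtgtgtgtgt
Zfp61: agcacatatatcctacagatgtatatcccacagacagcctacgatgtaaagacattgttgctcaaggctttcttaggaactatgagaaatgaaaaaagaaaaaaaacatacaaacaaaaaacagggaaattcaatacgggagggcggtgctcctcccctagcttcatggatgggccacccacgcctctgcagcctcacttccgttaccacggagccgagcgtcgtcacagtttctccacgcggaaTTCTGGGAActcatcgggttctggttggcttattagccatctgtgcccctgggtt
Zfp94: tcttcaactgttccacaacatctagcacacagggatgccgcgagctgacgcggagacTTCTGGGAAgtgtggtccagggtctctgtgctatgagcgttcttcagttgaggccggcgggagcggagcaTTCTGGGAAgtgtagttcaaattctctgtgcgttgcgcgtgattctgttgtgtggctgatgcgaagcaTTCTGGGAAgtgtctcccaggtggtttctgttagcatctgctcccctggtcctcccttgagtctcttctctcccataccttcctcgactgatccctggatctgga
The capitals mark the letters TTCTGGGAA, which were picked because they recur in these windows. Searched on both strands, they occurred once in the Zfp180 and Zfp61 windows and at 3 places in the Zfp94 window. Of the 143 members with a RefSeq window, 5 held them (3.5%), namely Zfp12 and Zfp84 besides these 3, against 1.22% of 8090 windows of other genes at or above the level threshold. Since the letters were picked from these 3 windows, the first share is raised by that choice: without them it was 2 of 140 (1.43%). Zfp12 and Zfp84 had a strain R2 of 0.444 each and did not pass the test for a strain effect described next. A fixed set of common promoter motifs, also read on both strands, gave shares of members against other genes of 48.3% and 64.8% for GGGCGG (the GC box), 7.69% and 8.33% for ACTTCCGG (an ETS site), 5.59% and 5.25% for GCATGCGC (an NRF1 site) and 6.99% and 9.84% for CACGTG (an E-box). These matches describe letters only.

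The first question was how much of each member's variance lay between strains. The strain R2, that is, the part of a gene's total sum of squares that lay between strains, had a median of 0.425 over the 180 members, with a range of 0.327 to 0.728. The median over all 20859 rows tested was 0.434, and the mean over members of the median R2 of non-member rows of like level (the same twentieth of the table) was 0.437. With 192 animals in 69 strains the R2 of a row with no strain effect averages 0.356 by its construction. In all, 75 of the 180 members lay above the median of their like-level rows, and 26 (14.4%) had an R2 over 0.5, against 23.6% of all rows. By limma's moderated F-test with p-values adjusted over all rows by Benjamini-Hochberg and calls made at a false discovery rate (FDR) of 5%, 53 of the 180 members (29.4%) had a strain effect. The background was 36.8% of all rows and 36.0% of rows of like level, and the difference between these shares was not tested. Among the 81 Zfp rows below the threshold, 27 (33.3%) were called. The members' count was 7 without animal 2 of every strain (3.89%, against 14.9% of all rows) and 16 without animal 1 (8.89% against 15.7%). Whether the members' share lay below that of all rows depended on the setting: it lay above without animal 3 (31.1% against 29.3%), with batch as a covariate and 1 library per animal (119 members, 66.1% against 58.6%) and with the first component of the non-member rows as a covariate (92 members, 51.1% against 47%). Among other rows at or above the level threshold the shares in these 3 settings were 29.8%, 66.2% and 50.4%, close to those of the members, and 33.8% as first reported. Both covariates were chosen after seeing the data.

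**Figure D1:**
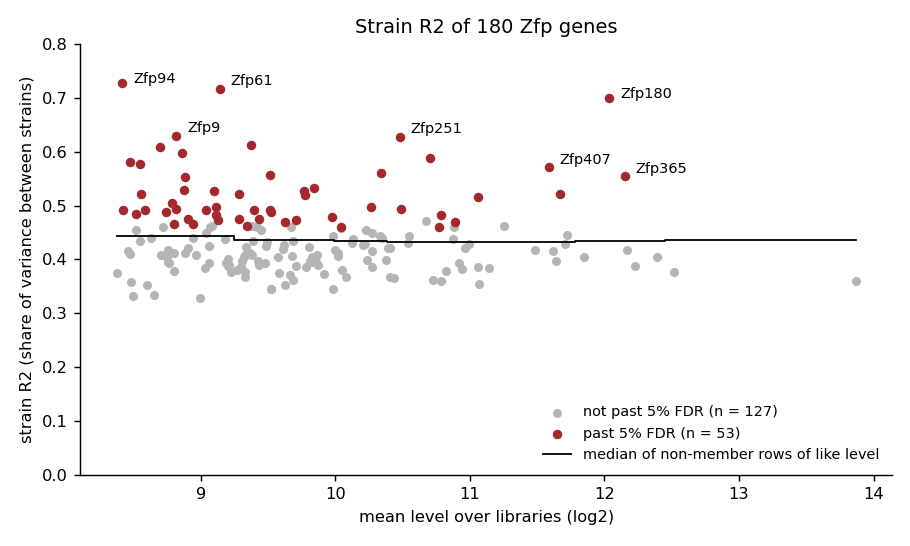
Strain R2 (vertical axis, share of variance between strains) of the 180 Zfp genes against their mean log2 level (horizontal axis). Red points passed 5% FDR (n = 53), grey points did not (n = 127), and the line is the median R2 of non-member rows of like level. Zfp94, Zfp61 and Zfp180 stand highest, at 0.728, 0.716 and 0.699.

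Within the panels fewer members were called. In HXB/BXH, 30 members (16.7%) passed, against 19.1% of all rows and 14.9% of other rows at or above the level threshold. The count was 4 to 9 with animals of 1 replicate number left out, with no HXB/BXH share of all rows to set beside it. Over all strains, the share of all rows called also fell in those settings, from 36.8% to between 14.9% and 29.3%. In FXLE/LEXF, 2 members (1.11%) passed, against 5% of all rows and 3.5% of other rows at or above the threshold. That count was 0 to 10 with animals of 1 replicate number left out, and 21 of 160 matched members in another deposited version (v6). In the classic inbred strains 10 members (5.56%) passed, against 18.6% and 12.5%. The 2 of FXLE/LEXF were Zfp94 (adjusted p = 0.00117, limma) and Zfp9 (adjusted p = 0.00289, limma). Zfp94 was the single member called in all 3 panels. Zfp61, Zfp180, Zfp136 and Zfp365, besides Zfp94, were called in both HXB/BXH and the inbred strains. Zfp365 encodes a DISC1-binding protein of neurons and glia. Differences between panels were not tested, and the panels differ in the number of strains and animals. HXB/BXH and FXLE/LEXF libraries also shared no sequencing batch, so panel and batch cannot be told apart between these families.

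The spread between strains was small on the log2 scale. From the lowest to the highest strain mean, over strains with 2 or more animals, the members spanned a median of 0.51, from 0.22 to 1.17. The residual SD within strains had a median of 0.140. For comparison, the SD between the 12 libraries of SHR/OlaIpcv animal 1 had a median of 0.158 over members. Other animals with repeat libraries were not compared in this way.

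Zfp94 had the highest R2, 0.728 (adjusted p = 4.78e-13, limma). Its lowest strain was FHH/EurMcwi, with animals at 8.09, 8.05 and 8.02, followed by MWF/Hsd at 8.10, 8.10 and 8.15. Its highest was BDIX/NemOdaMcwi, with animals at 8.67 and 8.81. The animals of these strains did not overlap. Among the inbred strains, 5 strain means lay from 8.05 to 8.22 and the other 18 from 8.39 to 8.74, so a gap of 0.18 parted them. In FXLE/LEXF, 9 strain means ended at 8.38 and 7 began at 8.49, while the 30 HXB/BXH means ran from 8.22 to 8.67 with no gap over 0.047. The FXLE/LEXF gap of 0.12 lay below the median residual SD of members within strains, 0.140, so no split is read from it.

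Zfp61 had an R2 of 0.716 (adjusted p = 9.42e-12, limma). Its lowest strain mean was that of DA/OlaHsd, with animals at 9.01, 9.00 and 8.87, and its highest that of LEXF6B/Stm, with animals at 9.41 and 9.32. The largest gap among its HXB/BXH strain means was 0.064, between 19 strains from 8.97 to 9.17 and 11 from 9.24 to 9.32. That gap lay below 0.140, the median residual SD of members within strains, so no split is read from it. Zfp180 had an R2 of 0.699 (adjusted p = 9.41e-11, limma). Its animals were at 11.69, 11.68 and 11.89 in HXB1/Ipcv, the lowest strain, and at 12.47, 12.24 and 12.38 in BN/NHsdMcwi, the highest. In each case the lowest and highest strains did not overlap.

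These 3 genes moved together in the recombinant inbred families. Over the 30 HXB/BXH strain means, Pearson's r was 0.90 for Zfp61 and Zfp94, 0.85 for Zfp180 and Zfp61, and 0.74 for Zfp180 and Zfp94. Over 16 FXLE/LEXF strains the same pairs had r of 0.75, 0.64 and 0.84, and over 23 inbred strains 0.73, 0.33 and 0.36. The squares of the last 2 lie below 0.236, the mean squared correlation of members on different chromosomes in the inbred strains. Zfp112, a Zfp gene below the level threshold at 8.00, also followed them in HXB/BXH, with r of 0.82 to Zfp61, 0.78 to Zfp94 and 0.72 to Zfp180. The members Zfp111 and Zfp428, which the deposited annotation places in the same cluster, did not: their r with the 3 genes lay between -0.16 and 0.18 in HXB/BXH. The strain means of a pair come from the same libraries, so these values are descriptions. In 3 other deposited tables Zfp180 and Zfp94, matched there by identifier, had r of 0.81 (reconstructed genes of the same version), 0.84 (v6) and 0.88 (v5) over the HXB/BXH strains, while Zfp61 was not matched. Whether reads shared between these genes contribute was not tested.

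**Figure D2:**
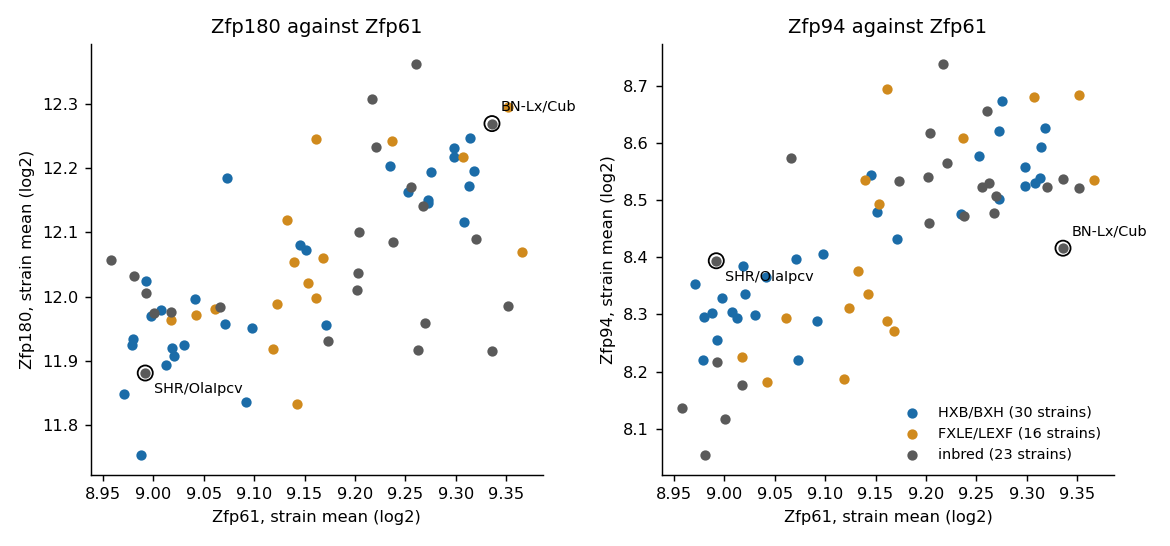
Strain means (log2) of Zfp180 (left) and Zfp94 (right) against Zfp61, for strains with 2 or more animals, coloured by panel, with the progenitors of HXB/BXH circled. The HXB/BXH points rise together in both plots (r = 0.85 and 0.90). BN-Lx/Cub lies with the high strains for Zfp180 but at 8.42, near SHR/OlaIpcv at 8.39, for Zfp94 (means over libraries of several batches). Within a batch, against SHR/OlaIpcv animal 1 alone, Zfp94 was 0.11 to 0.27 higher in BN-Lx/Cub, by differences that are not independent.

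The other members among the 10 with the highest R2 were Zfp9 (0.629), Zfp251 (0.628), Zfp161 (0.612), Zfp689 (0.610), Zfp136 (0.598), Zfp46 (0.587) and Zfp277 (0.581). Zfp9 was lowest in FXLE14/Stm, with animals at 8.42, 8.43 and 8.40, and was highest in BN-Lx/Cub, with animals at 9.52, 9.06 and 9.18. Zfp251 ran from 10.25, 10.39 and 10.32 in HXB17/Ipcv to 10.59 and 10.58 in HXB2/Ipcv, a narrow but non-overlapping range. Zfp161, a BTB and zinc finger protein also named Zbtb14, ran from 9.30, 9.24 and 9.18 in HXB3/Ipcv to 9.56, 9.64 and 9.53 in HXB27/Ipcv. Zfp689 was lowest in FXLE17/Stm, at 8.54, 8.33 and 8.48, and highest in HXB4/Ipcv, at 8.78, 8.94 and 8.94. Zfp46 had a narrow range, and its animals differed little within strains, at 10.60, 10.60 and 10.56 in PVG/Seac against 10.76, 10.87 and 10.88 in HXB22/Ipcv. Zfp277 ran from 8.25 and 8.17 in LEXF5/Stm to 8.97, 8.59 and 8.73 in BN-Lx/Cub.

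The widest ranges of strain means among called members were those of Zfp347 (1.17), Zfp136 (1.01), Zfp560 (0.99), Zfp955a (0.91) and Zfp141 (0.89). Zfp347 was lowest in F344/NCrl, with animals at 8.58 and 8.96, and next lowest in F344/NHsd, at 9.05, 9.00 and 9.16, while the F344/Stm substrain was higher, at 9.57, 9.46 and 9.75. These F344 substrains shared no sequencing batch, so substrain and batch cannot be told apart here. The highest strain for Zfp347 was HXB27/Ipcv, with animals at 10.18, 9.81 and 9.83. Zfp136 was lowest in HXB1/Ipcv, at 8.20, 8.31 and 8.38, and highest in MWF/Hsd, at 9.49, 9.19 and 9.23. Zfp560 was likewise lowest in HXB1/Ipcv, at 8.40, 8.25 and 8.46, and highest in GK/FarMcwi, at 9.37, 9.39 and 9.30. Zfp955a and Zfp141 were lowest in HXB1/Ipcv and highest in BN-Lx/Cub, where animal 1 stood apart at 9.98 and 9.70. At the other end, Zfp394 (R2 0.327), Zfp954 (0.331) and Zfp949 (0.334) had the lowest R2 of the members, with adjusted p from 0.699 to 0.802 by limma.

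Members with a known role were taken from a list of 21 genes, of which 19 were members, and 3 of these 19 had a strain effect over all strains (the background was 36.8%). Zfp365 had an R2 of 0.554 (adjusted p = 0.000491, limma) and ran from 12.03, 12.04 and 11.83 in LEXF10A/Stm to 12.34, 12.45 and 12.39 in SR/JrHsd. Zfp804a, the rat counterpart of a locus associated with schizophrenia in humans, had an R2 of 0.475 (adjusted p = 0.0252, limma), and its animals were at 9.21 and 8.95 in HXB2/Ipcv and at 10.04, 9.63 and 9.57 in BN-Lx/Cub. Zfp384, a nuclear matrix protein that acts on collagen and metalloproteinase genes, had an R2 of 0.470 (adjusted p = 0.0457, limma), from 9.46, 9.41 and 9.37 in LEXF10B/Stm to 9.80 and 9.76 in LEXF1C/Stm. The calls of Zfp804a and Zfp384 were lost in at least 4 and 3 alternatives of the closing section.

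The remaining 16 of that list did not pass over all strains. They include the abundant Zfp106 (R2 0.359), Zfp91, a ubiquitin ligase of the NF-kB pathway (0.404), and Zfp638, a silencing and splicing factor (0.387). Regulators of neural development did not pass either: Zfp423 (0.415), Zfp462 (0.382), Zfp521 (0.455), Zfp536 (0.422) and Zfp609 (0.421). The same held for Zfp598, a ubiquitin ligase that senses collided ribosomes (0.408), for Zfp746, a substrate of parkin (0.460), and for the DNA-binding factors Zfp148 (0.417) and Zfp281 (0.378). Zfp207, a spindle assembly factor, passed within HXB/BXH (adjusted p = 0.0473, limma) but not over all strains (R2 0.437). Zfp292 (0.417), Zfp532 (0.445) and Zfp706 (0.396) complete the list.

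The members shared much of their variation. Of the variance of the 180 genes over the 197 animals, 54.0% lay on a first component and 5.84% on a second. With the average of the other members, 90 genes had r over 0.5, led by Zfp292 at 0.92, 66 had r between -0.5 and 0.5, and 24 had r under -0.5, the lowest being Zfp687 at -0.67. The zinc finger genes therefore did not rise and fall as a single block, as 59 members had a negative r. Nor was the pattern particular to them: the average of the members had r of 0.85 with the first component of the non-member rows at or above the threshold, which held 34.1% of the variance of those rows. These components come from the same libraries. Zfp61 had r of -0.00 with that component and Zfp180 0.36.

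The average of the members ranged from 9.63 to 10.02 between animals and from 9.67 in HXB1/Ipcv to 9.90 in BN-Lx/Cub between strains. The R2 of the average was 0.405 by strain. The means of 17 batches lay between 9.78 and 9.79, with a batch R2 of 0.00627 over libraries. With 17 batches and 214 libraries, a measure with no batch effect averages 0.0751, so the batch means were more even than that, and this R2 cannot show whether the average was free of batch. Single libraries of the same animal ranged from 9.68 to 9.86 over 12 libraries of SHR/OlaIpcv animal 1 and from 9.69 to 9.84 over 6 libraries of SHR/OlaIpcv animal 4.

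Among marker lists of cell types and tissues, the average had r of 0.40 with neurons, 0.34 with cerebellar granule cells, -0.54 with endothelium, -0.24 with microglia, 0.04 with astrocytes and 0.01 with oligodendrocytes. The highest was 0.65 with 4 Y-linked genes, whose mean level ran from 7.60 to 9.33 over the animals. Endothelial markers, 3 of 3 measured, had a mean level of 10.28 to 10.55 in the animals of BN-Lx/Cub and 10.62 to 10.75 in those of HXB1/Ipcv. Choroid plexus markers, 4 of 4 measured, were at 9.66 to 9.78 and 9.90 to 10.48, again without overlap. Cerebellar markers, 4 of 4 measured, overlapped, at 10.72 to 11.75 and 10.48 to 11.32 in the same strains. The Y-linked genes, also 4 of 4 measured, were at 8.66 to 9.33 in BN-Lx/Cub and 8.20 to 8.52 in HXB1/Ipcv. The part of these in the results was not tested.

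**Figure D3:**
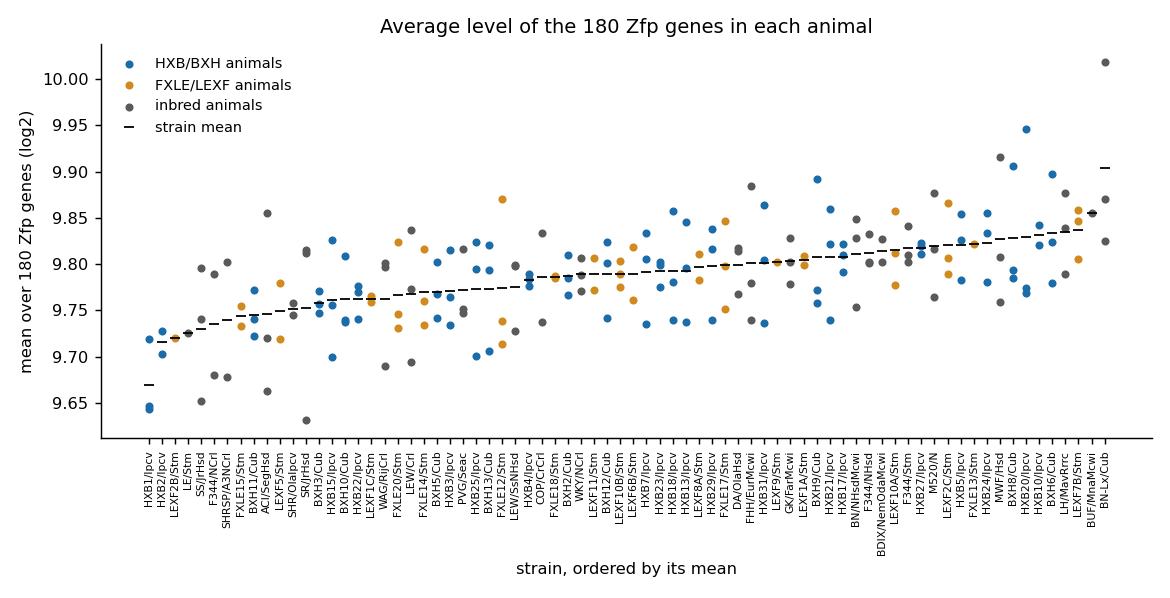
Mean log2 level of the 180 Zfp genes in each animal (points, coloured by panel) for 74 strains ordered by their mean (dashes). HXB1/Ipcv lies lowest at 9.67 and BN-Lx/Cub highest at 9.90, where animal 1 stands at 10.02 above the other animals at 9.82 and 9.87.

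Each of the 69 strains with 2 or more animals was then set against the mean of the others. Of 192 calls of a member in a strain at 5% FDR, 147 fell in BN-Lx/Cub and HXB1/Ipcv, and 38 strains had none. In BN-Lx/Cub, 77 members were higher and 10 lower (48.3% of members, against 20.6% of all rows and 30.4% of other rows at or above the level threshold). In HXB1/Ipcv, 58 were lower and 2 higher (33.3%, against 11.6% and 15.9%). When only rows at or above the threshold were tested, the shares were 55% of members against 39.8% of rows in BN-Lx/Cub, and 41.7% against 22.9% in HXB1/Ipcv. With all rows tested, 52 members were shared between the 77 higher calls of BN-Lx/Cub and the 58 lower calls of HXB1/Ipcv (67.5% and 89.7% of those calls). This is a description, since each strain is part of the mean the other was set against.

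The calls in BN-Lx/Cub rested on 1 animal. Without animal 1 no member was called there by limma (13 at an unadjusted p under 0.05, and 0.403% of all rows called), and HXB1/Ipcv had 2 higher and 58 lower calls. With animal 2 of every strain left out, limma called no member in HXB1/Ipcv (50 at an unadjusted p under 0.05, and 0.441% of all rows called), and with animal 1 of every strain left out 11 were (1.86% of all rows). With the first component of the non-member rows as a covariate, limma gave BN-Lx/Cub no call (10 at an unadjusted p under 0.05, and 1.21% of all rows called) and HXB1/Ipcv 3 lower (1.85% of all rows). With batch as a covariate and 1 library per animal, BN-Lx/Cub had 88 members higher and 23 lower (37.1% of all rows), while HXB1/Ipcv had 1 lower (1.23% of all rows). In that setting some strains shared no batch with the rest. A strain minus the mean of all others then depends on which batch terms the fit dropped, so nothing is read from the batch counts of single strains. These alternatives other than leaving out each animal number were chosen after seeing the data.

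The next strains had few calls. HXB27/Ipcv had 4 (background 2.84%), with Zfp161, Zfp347 and Zfp799 higher and Zfp27 lower. LH/MavRrrc had 4 (background 3.43%), with Zfp407, Zfp46 and Zfp609 higher and Zfp136 lower. BN/NHsdMcwi, the reference strain, had 3 (background 3.27%), with Zfp180, Zfp277 and Zfp9 higher. MWF/Hsd also had 3 (background 2.47%), with Zfp136 higher and Zfp346 and Zfp94 lower. By limma, HXB27/Ipcv had no call without animal 1 or without animal 2 of every strain (0.738% and 0.988% of all rows called). LH/MavRrrc had none without animal 2 (0.757%) or with batch as a covariate (0.105%), and BN/NHsdMcwi none with batch (0.0336%). The limit given above for batch counts of single strains holds here too. With the first component as a covariate these 3 strains had 6 higher and 4 lower, 6 and 6, and 8 and 1 (5.48%, 5.04% and 5.79% of all rows). In all, 71 of the 180 members (39.4%) were called in no strain, against 56.5% of all rows and 50.4% of other rows at or above the level threshold. The other 109 depended largely on BN-Lx/Cub and HXB1/Ipcv, since 34 members were called in any strain without these strains, and 21 without animal 1 of every strain.

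The progenitors of the HXB/BXH strains were compared next. Of the 180, 26 (14.4%) were called between BN-Lx/Cub (3 animals) and SHR/OlaIpcv (2 animals), against 4.51% of all rows. Of these, 23 were higher in BN-Lx/Cub (2.63% of all rows) and 3 lower (1.87% of all rows), namely Zfp689, Zfp446 and Zfp251. The values of the SHR/OlaIpcv animals are means of 12 and 6 libraries, while animals 1 and 2 of BN-Lx/Cub are single libraries. The fit gave each animal the same weight. The median difference over the 180 members was 0.14 log2 units in favour of BN-Lx/Cub, and -0.02 over all rows. Some marker lists also differed between the progenitors without overlap of their animals. Those of neurons, astrocytes, oligodendrocytes, microglia and cerebellar granule cells overlapped. With so few animals, a list can part without overlap by chance. Blood markers (3 of 3 measured) were at 11.86 to 12.14 in BN-Lx/Cub and 13.31 to 13.34 in SHR/OlaIpcv, and endothelial markers at 10.28 to 10.55 and 10.56 to 10.73. Choroid plexus markers (4 of 4) were at 9.66 to 9.78 and 9.82 to 10.34, olfactory bulb markers (3 of 3) at 6.32 to 7.22 and 7.32 to 7.96, and liver markers (4 of 4) at 7.58 to 7.77 and 8.26 to 8.52. The Y-linked genes went the other way, at 8.66 to 9.33 and 8.50 to 8.52. The part of these in the progenitor differences was not tested.

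The largest differences were those of Zfp141 (0.76 ± 0.19, SE), Zfp955a (0.73 ± 0.20), Zfp945 (0.70 ± 0.21), Zfp654 (0.69 ± 0.20), Zfp37 (0.67 ± 0.19), Zfp292 (0.66 ± 0.17), Zfp605 (0.63 ± 0.16) and Zfp59 (0.63 ± 0.19), with adjusted p from 0.00772 to 0.0366 by limma. Zfp141 was at 9.70, 9.08 and 9.19 in BN-Lx/Cub and at 8.48 and 8.65 in SHR/OlaIpcv. Zfp292, a brain-expressed factor first known for binding the growth hormone promoter, was at 12.33, 11.65 and 11.74 against 11.25 and 11.24. In each of the 8, animal 1 of BN-Lx/Cub was the highest, from 0.52 (Zfp141) to 0.75 (Zfp654) above the next animal. With the first component of non-member rows as a covariate the 8 differences, in the order above, were 0.47, 0.43, 0.37, 0.38, 0.38, 0.39, 0.38 and 0.35. Zfp61 and Zfp180 differed by less, 0.34 ± 0.09 (adjusted p = 0.0105, limma) and 0.39 ± 0.10 (adjusted p = 0.00820, limma). Zfp61 was at 9.48, 9.23 and 9.29 against 8.99 and 9.00, and Zfp180 at 12.37, 12.19 and 12.25 against 11.84 and 11.92. Zfp251 was lower in BN-Lx/Cub, at 10.43, 10.29 and 10.34 against 10.57 and 10.55 (adjusted p = 0.0351, limma).

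The count rested on single animals and libraries. Without animal 1 of BN-Lx/Cub 1 member was called, Zfp251 (0.556% of members, against 1.78% of all rows), and with 1 library per animal there were 2, Zfp61 and Zfp180 (1.11% against 2.63%). A replicate block left 2, Zfp141 and Zfp61 (1.11% against 1.97%), and leaving out animal 1 of every strain left 0 by limma (18 at an unadjusted p under 0.05, and 0.992% of all rows called). In these 4 settings the members' share was below that of all rows. It stayed above with batch as a covariate and 1 library per animal (19.4% against 7.51%), without animal 2 (8.33% against 3.91%) and without animal 3 of every strain (21.1% against 6.19%). With the first component of non-member rows as a covariate 15 of the 26 remained (8.33% against 4.65%), Zfp141, Zfp292, Zfp605, Zfp61 and Zfp180 among them. Their differences then were 0.47, 0.39, 0.38, 0.33 and 0.28. Within a batch, each library of BN-Lx/Cub could be set against the library of SHR/OlaIpcv animal 1 from the same batch. Animals 1 and 2 of BN-Lx/Cub were set against the same library, so the 4 differences are not independent. The member average was higher in BN-Lx/Cub by 0.28 for animal 1, by 0.09 for animal 2 and by 0.15 and 0.12 for the libraries of animal 3. The corresponding differences were 0.54, 0.29, 0.32 and 0.34 for Zfp61, 0.51, 0.33, 0.40 and 0.43 for Zfp180, and 1.19, 0.57, 0.63 and 0.81 for Zfp141.

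The recombinant inbred strains are other animals and show whether a progenitor difference also varies among their descendants. Of the 26 members, 11 (42.3%) had a strain effect among the HXB/BXH strains, against 12.3% of the members not called between the progenitors. For all rows called between the progenitors the share was 73.6%, and for the other rows 16.6%. The 11 were Zfp605, Zfp9, Zfp189, Zfp612, Zfp157, Zfp180, Zfp74, Zfp61, Zfp689, Zfp446 and Zfp251. Of the 8 members with the largest differences, Zfp605 alone was among them. For Zfp141 the 30 strain means ran from 8.44 to 9.09, short of the BN-Lx/Cub mean of 9.32, and 25 strains lay nearer SHR/OlaIpcv. For Zfp61, 12 strains lay nearer BN-Lx/Cub and 18 nearer SHR/OlaIpcv, and for Zfp180 13 and 17. The lists shared 11 strains, 91.7% of the first and 84.6% of the second. For Zfp94, which varied among HXB/BXH strains (R2 0.600, adjusted p = 0.00189, limma), the progenitor means were 8.42 and 8.39. In the comparisons within a batch, all against SHR/OlaIpcv animal 1, Zfp94 was higher in BN-Lx/Cub by 0.27, 0.11, 0.23 and 0.11 for the same 4 libraries. The first 2 share an SHR/OlaIpcv library and the last 2 a BN-Lx/Cub animal. The SD between libraries of SHR/OlaIpcv animal 1 had a median of 0.158 over members.

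**Figure D4:**
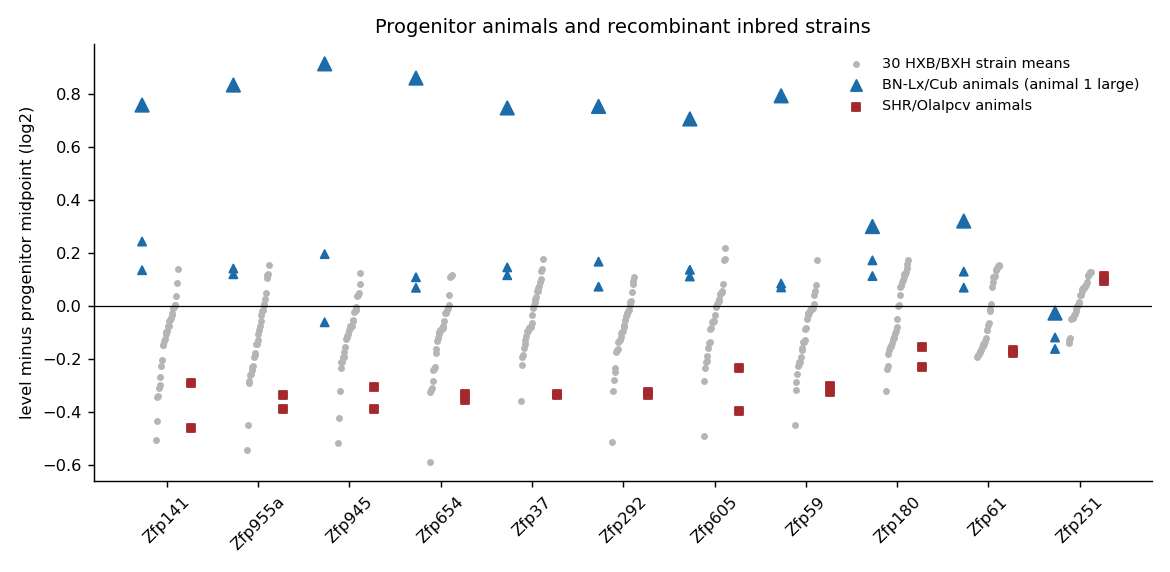
Levels minus the midpoint of the progenitor means (log2, vertical axis) for 11 Zfp genes: animals of BN-Lx/Cub (triangles, animal 1 large), animals of SHR/OlaIpcv (squares) and means of 30 HXB/BXH strains (grey points, sorted). In the first 8 genes animal 1 of BN-Lx/Cub lies far above the other animals and the strain means, and in Zfp180 and Zfp61 the strain means span 0.49 and 0.35, against 0.39 and 0.34 between the progenitor means.

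Positions were read from the deposited annotation, whose assembly is not given in the sources used here and whose coordinates differ from those of the promoter windows above. Of the 180 members, 160 were placed, 85 of them on 2 or more features. Chromosome 1 held 31 (19.4% of placed members, against 11.9% of placed rows at or above the threshold). With starts within 500 kb of the next member counted as neighbours, 64 members formed 23 clusters of 2 or more.

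The largest cluster, chr4:76789434-77575296, held Zfp746, Zfp282, Zfp212, Zfp777, Zfp467 and Zfp775, of which 2 of 6 had a strain effect over all strains (background 36.8%) and none in HXB/BXH by limma (2 at an unadjusted p under 0.05, background 19.1%). With so few genes, the counts per cluster are descriptions and are not set apart from the background. Zfp467 (R2 0.488) ran from 8.52, 8.27 and 8.50 in HXB25/Ipcv to 9.00 and 9.15 in LEXF1C/Stm, and Zfp212 (0.476) from 9.12, 9.11 and 9.15 in BN-Lx/Cub to 9.53 and 9.39 in LEXF6B/Stm. The second, chr8:18808261-19160053, held Zfp560, Zfp26, Zfp426, Zfp266 and Zfp846, of which 3 were called: Zfp560 (0.505), Zfp846 (0.475) and Zfp426 (0.474). HXB1/Ipcv was the lowest strain for Zfp846, with all 3 animals at 8.65, and BN-Lx/Cub the highest, at 9.31, 9.09 and 9.15. The SD of those HXB1/Ipcv animals was 8.88e-05, against a median residual SD of 0.140 over members. Why these values were so alike was not tested. The cluster at chr1:85157395-85402171 held Zfp74, Zfp14, Zfp260 and Zfp382, with Zfp14 (0.492) and Zfp74 (0.465) called. Another 4-member cluster, chr1:79698997-80121577, is the one with Zfp180 and Zfp94, beside Zfp111 and Zfp428. Calls named here depended on the setting (closing section). The calls of Zfp212, Zfp846 and Zfp74 were lost in at least 6 alternatives, and those of Zfp560, Zfp426 and Zfp14 in at least 3.

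Neighbouring members were then compared by the squared correlation of their strain means. In HXB/BXH the mean over 62 neighbouring pairs was 0.229, and 0.215 without the 15 pairs whose spans overlap. Members on different chromosomes had 0.189, neighbouring pairs of other genes 0.188 (35717 pairs) and other genes on different chromosomes 0.139. In FXLE/LEXF the same values were 0.268, 0.258, 0.252 and 0.208, and in the inbred strains 0.273, 0.236, 0.200 and 0.158. In every panel the value of members on different chromosomes was not far below that of neighbouring members, and the differences were not tested. With the first component of the non-member rows as a covariate, the HXB/BXH values fell to 0.112 for neighbouring members, 0.089 for members on different chromosomes, 0.111 for other neighbouring genes and 0.087 for other genes on different chromosomes.

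The 5 closest of the 62 neighbouring pairs in HXB/BXH were led by Zfp40 and Zfp945 (0.717) and Zfp560 and Zfp266 (0.646). The others were Zfp248 and Zfp9 (0.601), Zfp26 and Zfp846 (0.574) and Zfp266 and Zfp846 (0.570). Zfp61 is in none of the 62 pairs, although its r in HXB/BXH was 0.90 with Zfp94 and 0.85 with Zfp180. Pairs were formed from the deposited annotation alone, where Zfp61 was not placed near these genes. By the GRCr8 promoter windows above, it lies close to Zfp94. The spans of Zfp40 and Zfp945, and those of Zfp248 and Zfp9, overlap in the annotation on the same strand, so their reads may not be fully separable. With the covariate the values of the 5 pairs were 0.403, 0.241, 0.529, 0.053 and 0.075. The pair Zfp180 and Zfp94 had 0.542 as deposited and 0.630 with the covariate. It was among the pairs whose value rose.

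**Figure D5:**
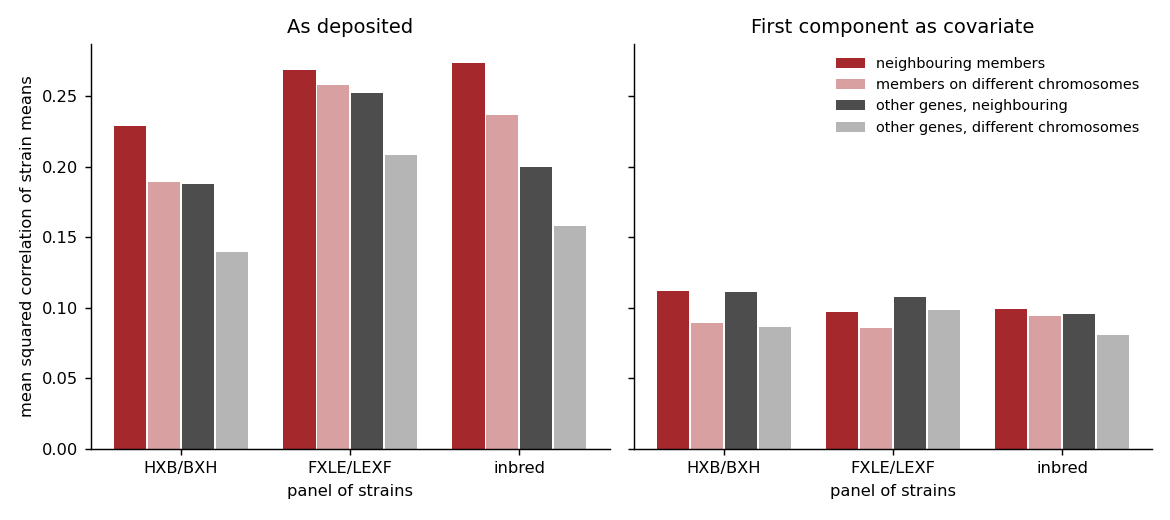
Mean squared correlation of strain means (vertical axis) for neighbouring members, members on different chromosomes, other neighbouring genes and other genes on different chromosomes, in 3 panels of strains, as deposited (left) and with the first component of the non-member rows as a covariate (right). In HXB/BXH the bar of neighbouring members fell from 0.229 to 0.112.

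The silencing machinery through which KRAB zinc finger proteins act was looked at with a list of 38 genes, of which 37 were measured. Their median R2 was 0.398, and 2 of 37 (5.41%) had a strain effect, against 36.8% of all rows: Setdb1, a histone methyltransferase (R2 0.553, adjusted p = 0.00443, limma), and Kdm1a, a histone demethylase (R2 0.504, adjusted p = 0.0286, limma). By limma none was called within HXB/BXH (1 at an unadjusted p under 0.05, background 19.1%) or between the progenitors (6 at an unadjusted p under 0.05, background 4.51%). At the latter background, a count of 0 says little for 37 genes. Trim28, the partner of the KRAB domain, had an R2 of 0.397 (adjusted p = 0.276, limma) and a difference of -0.23 between BN-Lx/Cub and SHR/OlaIpcv (adjusted p = 0.322, limma). Among other zinc finger families at or above the same level, 6 of 30 Zbtb genes (20%), 4 of 6 Zkscan genes and 0 of 6 Zscan genes (limma, 1 at an unadjusted p under 0.05) had a strain effect over all strains.

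The libraries as a whole set limits on these values. Of 192 animals in strains with replicates, 89 were nearest, by the correlation of their deviations over all rows, to an animal of their own strain. No library was a copy of another. The animal of LE/Stm had liver markers at a mean level of 18.77, against 13.48 in the next highest animal. The 4 Y-linked genes had a mean level of at most 7.83 in the 3 animals of LEW/Crl and of 7.60 in HXB17/Ipcv animal 2, against 8.20 or more in the other animals. In an alternative chosen with earlier results of these data known, the animals of LEW/Crl and LE/Stm were left out, while HXB17/Ipcv animal 2 was kept. LE/Stm has 1 animal and entered no F-test. Neither LEW/Crl nor LE/Stm is in HXB/BXH or FXLE/LEXF, so of the F-tests only those over all strains and over the inbred strains could change. The count over all strains was then 53 (29.4% of members, against 36.6% of all rows). Between the progenitors the count was 27 (15% against 4.58%).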

How the data were processed

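RNA of untreated rat brains was sequenced as rRNA-depleted, stranded total RNA. For the version of the data that the paper describes, the authors used Cutadapt for trimming, Bowtie 2 to filter out rRNA, HISAT2 for alignment and StringTie for assembly, and RSEM to estimate counts. The authors then removed a factor of unwanted variation and applied the regularized log of DESeq2. The deposited values used here, gene-level log2 values of the later version 7.1 for RefSeq genes, are on a like scale, but how that version was normalized, and on which genome, is not given in the sources used here, although the labels of 135 of the 214 libraries name the rn6 build. No counts were given, so depth per library is unknown and the number of animals limits the precision. Library medians lay between 8.18 and 8.42.

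Libraries of the same strain and replicate number were averaged to 1 animal (numbers follow the sample titles, which for FXLE12/Stm differ from those in the table's column names), and 73 spike-in rows were left out. A strain effect was tested by the moderated F-test of limma 3.58.1 (R 4.3.3) on all 20859 remaining rows with Benjamini-Hochberg adjustment at 5% FDR, over 69 strains with 2 or more animals and within each panel. BN-Lx/Cub minus SHR/OlaIpcv, and each strain minus the mean of the others, were tested as contrasts of limma, fitted to all animals together. On simulated data of the same layout, 100% of rows with a strain SD of 1 residual SD, and 81.5% of rows shifted by 4 residual SD between the progenitors, were called. The simulated noise was independent between rows, while the real rows share a component, so these shares do not give the power here. Alternatives are given in the closing section. Figures used matplotlib 3.10.9, and tables numpy 2.4.6 and pandas 2.3.3 under Python 3.11.15. Promoter windows are those of RefSeq, matched by symbol for 143 of 180 members. Protein sequences were not analysed here.

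The members, lists and tests were chosen with earlier results of these data known. Genes were named by rule: among members, the 10 highest R2 and 5 widest ranges past 5% FDR, the 8 largest progenitor differences past 5% FDR, the 3 highest and 3 lowest levels, the 3 lowest R2, the 3 Zfp rows on each side of the threshold, the members of the 3 largest clusters (of 4 clusters tied for the third place, the one with the shortest span), the 5 closest pairs and 21 genes of known function. Zfp111, Zfp112, Zfp428, Zfp12, Zfp84, Zfp687, Zfp27, Zfp407, Zfp799, Zfp346, Zfp157, Zfp189, Zfp446 and Zfp612 were named after their values were seen.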

Additional observations from a re-analysis of the deposited data

How the results depend on the processing

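With batch as a covariate and 1 library per animal, the count of members with a strain effect was 119 over all strains (53 as reported), 53 in HXB/BXH (30), 3 in FXLE/LEXF (2) and 45 of the 59 named members (25), and 35 members were called between the progenitors (26). With the first component of non-member rows as a covariate these counts were 92, 44, 4, 34 and 15. With both covariates the share of members called over all strains lay above that of all rows, but it was close to that of other rows at or above the level threshold (66.1% against 66.2% with batch, 51.1% against 50.4% with the component). When animals of 1 replicate number were left out the counts were 7 to 56, 4 to 9, 0 to 10, 6 to 28 and 0 to 38, and members called in any single strain numbered 21 to 103 (109 as reported). In these settings 14.9% to 29.3% of all rows were called over all strains, and 0.992% to 6.19% between the progenitors. In the version 7.1 table of reconstructed genes (155 members matched) the same counts of members were 17, 9, 0, 7 and 3, with 41 in any strain, and in the v6 table (160 matched) 26, 15, 21, 13 and 2, with 49 in any strain. The v5 table (149 matched) gave 83 over all strains and 2 between the progenitors, and no FXLE/LEXF value. The shares of all rows in these tables are not given here, so their counts are not read as traits of the members. Among the 42 members in the upper quartile of levels, 11 were called over all strains, 8 in HXB/BXH, 0 in FXLE/LEXF, 8 between the progenitors and 28 in any strain. FXLE/LEXF had 4 with each library centred on its median and 4 with limma-trend, and the progenitors 2 with 1 library per animal and 1 without BN-Lx/Cub animal 1. Without BN-Lx/Cub and HXB1/Ipcv, 34 members were called in any strain and 20 in HXB/BXH, with no progenitor value. Of the limma counts of 0, that between the progenitors (without replicate 1) had 18 members at an unadjusted p under 0.05, and those in FXLE/LEXF had 6 (without replicate 1), 5 (without replicate 2), 7 (reconstructed genes) and 5 (upper quartile). The median R2 (0.425) was 0.497 with batch as a covariate, 0.421 without BN-Lx/Cub animal 1 and 0.519 to 0.603 without 1 replicate number, where fewer animals per strain raise R2 by construction. The squared correlation of neighbouring members (0.229) was 0.173 to 0.276 without 1 replicate number, 0.171 in the v5 table and 0.112 with the component as a covariate, and the upper quartile left no neighbouring pairs. The batch and component covariates and the settings without BN-Lx/Cub animal 1 or without both strains were chosen after seeing the data, and the cause of these changes was not tested. Deviations of animals with the same replicate number had a mean correlation of 0.013, against -0.0063 for different numbers, so the numbers were not taken to pair the animals. A fit with a replicate block gave 58 over all strains, 29 in HXB/BXH, 2 in FXLE/LEXF and 2 between the progenitors (Zfp141 and Zfp61), and changed no call of a strain effect of the named members. Zfp94, Zfp61 and Zfp180 stayed below 5% FDR in each alternative that gave them a value, with the largest adjusted p (limma) at 8.64e-05, 0.000647 and 0.00562. Other named calls were less stable. The call was lost in at least 6 alternatives for Zfp212, Zfp846 and Zfp74, and in at least 5 for Zfp141. For Zfp955a and Zfp804a it was lost in at least 4, and for Zfp14, Zfp384, Zfp426, Zfp689 and Zfp560 in at least 3. Depth is unknown, and the number of animals per strain limits which differences can be called.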
